A study of Arabidopsis thaliana with 22 samples.

Results

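The plastid genes petA, petG, petL, petN and ccsA encode cytochrome f, 3 small subunits of the cytochrome b6f complex and a protein that attaches heme to c-type cytochromes. They were taken by name from the plastid annotation, as the cytochrome b6f genes that lie outside the psbB gene cluster together with ccsA, and they are 5 of the 112 plastid genes measured. The study used ptATAC-seq, in which the transposase Tn5 cuts the DNA it can reach and adds adapters there, and each insertion adds to the count of its position. The libraries came from rosette leaves of 14-day-old wild-type Arabidopsis thaliana, ecotype Col0, with no transgene or mutation named in either group. Chloroplasts enriched from the leaves were fixed in 4% formaldehyde for 4 h before Nextera library preparation, per the labels. The labels give 11 replicates of a nucleoid fraction, the compact plastid DNA with its proteins, and 11 of naked plastid DNA. How the naked DNA was freed of protein is not given in the sources used here, and the labels give the same growth, fixation and library protocol for both fractions. Nothing in the labels says that replicates came from separate plantings, so p-values measure only the spread between these libraries.

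The cytochrome b6f complex sits in the thylakoid membrane between photosystem II and photosystem I. It takes electrons from plastoquinol, hands them to plastocyanin and moves protons into the thylakoid lumen as it does so. Cytochrome f carries a heme that is bound covalently on the lumen side, and CcsA is a membrane protein of the pathway that makes this bond, worked out largely in the green alga Chlamydomonas. PetG, PetL and PetN each cross the membrane a single time at the edge of the complex. In the plastid, RNA polymerases act on DNA that nucleoid proteins pack, and Tn5 reaches packed DNA less readily than free DNA.

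The columns of nucleoid replicates 9 and 10 were identical over all 154477 positions and were counted as 1 sample, which left 10 nucleoid and 11 naked libraries. Nucleoid libraries held 202725 to 1813905 counts and naked libraries 105763 to 1195649, with 8 nucleoid and 5 naked libraries above 600000. Naked replicates 9, 10 and 11 stood apart from the other naked libraries. Their inverted repeats held 51.8% to 57.1% of all counts, against 40.9% to 49.1% in naked replicates 1 to 8 and 39.6% to 49.3% in the nucleoid libraries. The differences between fractions are therefore given with and without these 3 libraries. Signal is a gene's mean count per position in percent of its library's mean over the whole plastid genome, so a signal of 100 is the genome mean.

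None of the 5 genes differed between nucleoid and naked DNA past the threshold of an adjusted p of 0.05 (limma, Benjamini-Hochberg over all 112 genes). Across the genome 38 of the 112 genes passed, or 33.9%, of which 11 (9.82%) were higher in the nucleoid and 27 (24.1%) lower. An unadjusted p under 0.05 was reached by 56 genes, petG and ccsA among them. The means of all 5 genes lay close to or above the naked mean in the nucleoid, and the naked SD exceeded the nucleoid SD for each, though for petA and petL only with naked replicates 9, 10 and 11 included. The 3 naked libraries that stand apart held the lowest values of petL, petG and ccsA, and 1 of them held the lowest values of petN and petA.

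For petA, which encodes cytochrome f, the nucleoid libraries had a lowest signal of 94.6, a median of 103 and a highest of 108% of the genome mean. The naked libraries had a lowest signal of 34.1, a median of 102 and a highest of 108. Both fractions sat at the genome mean and overlapped almost completely, apart from naked replicate 9 far below and, less so, naked replicate 11 at 85.0. The means were 102 ± 5.08 (SD, n = 10) and 94.2 ± 20.96 (SD, n = 11), a log2 difference of 0.17 with a standard error of 0.145 (95% interval -0.13 to 0.47; limma, adjusted p = 0.315). Without naked replicates 9, 10 and 11 the difference was 0.0067, with an interval from -0.07 to 0.09.

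For petG, a small subunit needed for the complex to accumulate in tobacco, the nucleoid signal had a lowest value of 84.9, a median of 99.7 and a highest of 109. The naked signal had a lowest value of 20.3, a median of 83.0 and a highest of 112. All 10 nucleoid libraries lay above the naked median, with 6 naked libraries below the whole nucleoid range and 1 above it. The means were 99.1 ± 7.15 (SD, n = 10) and 74.9 ± 35.5 (SD, n = 11), a log2 difference of 0.62 with a standard error of 0.291 (95% interval 0.02 to 1.23; limma, adjusted p = 0.0950). It was the largest difference among the 5 genes and still did not pass. Naked replicates 9, 10 and 11 read 20.8, 27.8 and 20.3, while the other 8 naked libraries read 71.7 to 112. Without those 3 libraries the difference was 0.08, with an interval from -0.08 to 0.24 and an adjusted p of 0.547 (limma).

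For petL, the small subunit that in tobacco stabilises the complex without being required for it, the nucleoid signal had a lowest value of 49.2, a median of 87.4 and a highest of 111. The naked signal had a lowest value of 15.5, a median of 73.7 and a highest of 104. The fractions overlapped widely, and petL had the broadest nucleoid range of the 5 genes. The means were 83.4 ± 17.7 (SD, n = 10) and 66.0 ± 33.0 (SD, n = 11), a log2 difference of 0.56 with a standard error of 0.319 (95% interval -0.11 to 1.22; limma, adjusted p = 0.142). Naked replicates 9, 10 and 11 read 19.5, 21.1 and 15.5, well below the range of 59.3 to 104 in the other 8. Without them the difference was -0.015, with an interval from -0.30 to 0.27.

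For petN, the shortest of the 5 genes at 90 bp and likewise needed for the complex in tobacco, the nucleoid signal had a lowest value of 105, a median of 116 and a highest of 125. The naked signal had a lowest value of 84.3, a median of 112 and a highest of 154. The nucleoid values lay wholly inside the naked range, with 4 naked libraries below them and 3 above. The means were 116 ± 5.44 (SD, n = 10) and 117 ± 21.04 (SD, n = 11), a log2 difference of 0.0031 with a standard error of 0.0839 (limma, adjusted p = 0.971). Naked replicates 9, 10 and 11 read 84.3, 103 and 104, against 96.7 to 154 in the other 8, and without them the difference was -0.09, with an interval from -0.24 to 0.05.

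For ccsA, the heme attachment gene, the nucleoid signal had a lowest value of 62.7, a median of 71.7 and a highest of 81.6. The naked signal had a lowest value of 31.4, a median of 64.7 and a highest of 75.5. The ranges overlapped, with 5 naked libraries below the whole nucleoid range and none above it. The means were 72.9 ± 5.93 (SD, n = 10) and 59.5 ± 16.3 (SD, n = 11), a log2 difference of 0.34 with a standard error of 0.142 (95% interval 0.05 to 0.64; limma, adjusted p = 0.0711). This was the gene closest to the threshold, and it passed when naked replicate 1 or 3 was left out (limma, adjusted p = 0.0412 and 0.0416). Naked replicates 9, 10 and 11 read 40.0, 36.0 and 31.4, the other 8 read 56.4 to 75.5, and without the 3 the difference was 0.09, with an interval from -0.04 to 0.22.

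**Figure D1:**
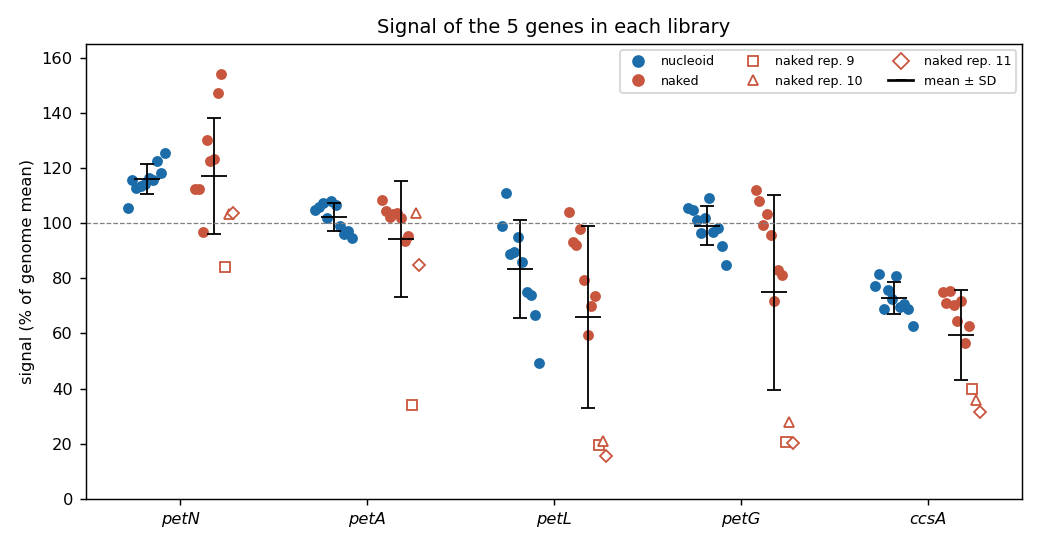
Signal of petN, petA, petL, petG and ccsA in every library, as percent of the genome mean of that library (vertical axis), with nucleoid and naked libraries side by side, each group's mean and SD, and open symbols for naked replicates 9, 10 and 11. These 3 lie at 15.5 to 27.8 for petL and petG and at 31.4 to 40.0 for ccsA, below every other library, while for petA only replicate 9 falls that far.

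Depth moved with these differences. Among the 8 nucleoid and 5 naked libraries above 600000 counts, which leave out all 3 naked libraries that stand apart, the log2 differences were 0.0020 for petN, -0.011 for petA, -0.06 for petL, -0.03 for petG and 0.06 for ccsA. The widest of their 95% intervals was that of petL, from -0.26 to 0.14. In a model of all libraries with log2 depth as a term, the differences were 0.05 for petN, 0.13 for petA, 0.19 for petL, 0.37 for petG and 0.21 for ccsA, and none passed. The part of depth in the pooled differences was not tested beyond these values.

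**Figure D2:**
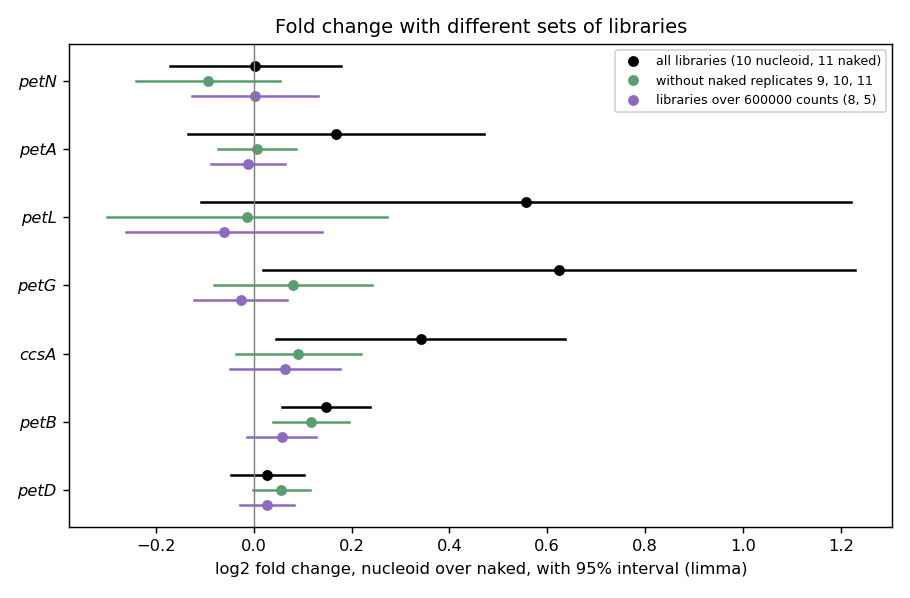
Log2 difference, nucleoid minus naked, of each gene with its 95% interval, over all libraries, without naked replicates 9, 10 and 11, and among the deep libraries (horizontal axis, log2 scale). The petG difference moves from 0.62 to 0.08 and -0.03, and the petL difference from 0.56 to -0.015 and -0.06.

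Signal is a mean per position, which takes out gene length. Sequence differences between the genes were not corrected for, so the order describes signal and not how open each gene was. In both fractions the order of the means was petN, petA, petG, petL and ccsA. By level, petN ranked 36 of 112 genes in the nucleoid and 39 in naked DNA, petA 55 and 63, petG 59 and 84, petL 83 and 96, and ccsA 99 and 103. Neighbours in this order were compared within libraries by an exact two-sided sign-flip permutation test on log2 signal, over 8 pairs with Benjamini-Hochberg adjustment. In the nucleoid petN lay above petA in 10 of 10 libraries (adjusted exact p = 0.00781) and petG above petL in 9 of 10 (adjusted exact p = 0.0104). The steps from petA to petG and from petL to ccsA did not pass in the nucleoid (adjusted exact p = 0.0647 for both). In naked DNA petN lay above petA in 9 of 11 libraries (adjusted exact p = 0.0117), petA above petG in 9 of 11 (adjusted exact p = 0.0203) and petG above petL in 11 of 11 (adjusted exact p = 0.00781). Naked petL and ccsA did not differ beyond their spread, with a mean log2 difference of -0.05 (adjusted exact p = 0.781). In naked replicates 9, 10 and 11 petL read 19.5, 21.1 and 15.5, below ccsA at 40.0, 36.0 and 31.4. Without these 3 libraries the naked means were 83.7 for petL and 68.4 for ccsA. Those of petA and petG were then 102 and 94.4. The order was not tested without these libraries.

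Among the deep libraries, the ladder had a different set of steps. In the 8 deep nucleoid libraries petN lay above petA in 8 of 8 and petL above ccsA in 8 of 8 (adjusted exact p = 0.0313 for both), and petG lay above petL in 7 of 8 (adjusted exact p = 0.0417). In the 5 deep naked libraries petG lay above petL and petL above ccsA in all 5, but a group of 5 cannot go below an exact p of 0.0625. The petA step over petG was small in these libraries, 104 against 102 in the nucleoid and 104 against 104 in naked DNA. The larger petA step in the pooled naked fraction thus had its value only with the shallower libraries included, naked replicates 9, 10 and 11 among them.

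**Figure D3:**
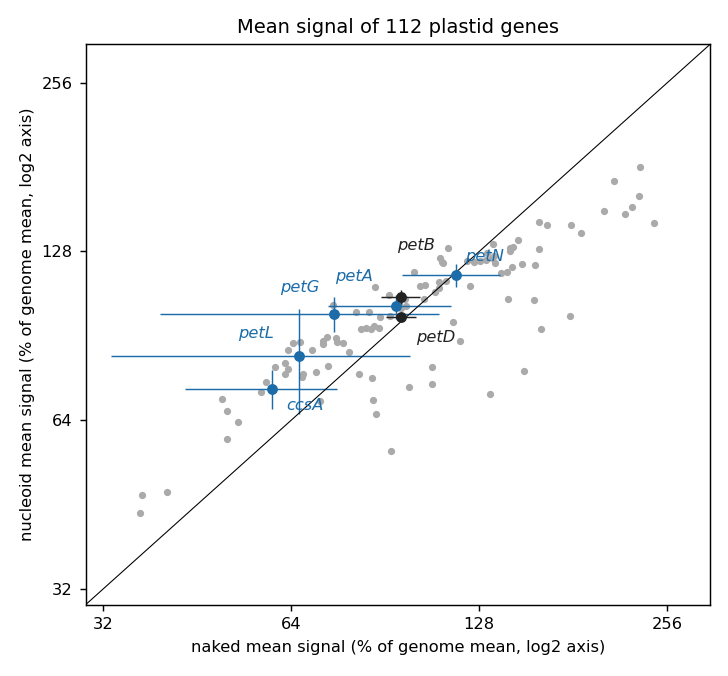
Mean signal of all 112 plastid genes in naked DNA (horizontal) and in the nucleoid (vertical), both as percent of the genome mean on log2 axes, with SD bars for the 5 genes and for petB and petD and a line of equality. The 5 genes run from ccsA at 59.5 and 72.9 to petN at 117 and 116, on or above the line apart from petN.

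The fractions also differed in how far libraries lay from one another. The naked SD was 3.87 times the nucleoid SD for petN, 4.13 times for petA, 4.96 times for petG, 1.87 times for petL and 2.75 times for ccsA. Across all genes the median of this ratio was 2.23, and it exceeded 1 for 109 of 112 genes, so over all libraries a wider naked spread was general. Without naked replicates 9, 10 and 11 the ratio was 3.47 for petN, 0.964 for petA, 1.998 for petG, 0.877 for petL and 1.12 for ccsA, with a median of 1.28 over all genes and 80 of 112 above 1. The wider naked spread of petA and petL was thus seen only with these 3 libraries. In the nucleoid the coefficient of variation of petN was 4.69%, about what counting alone gives at its depth, 4.68%. That of petL was 21.2% against 6.09% from counting. Counting alone gave more in naked DNA, 6.68% for petN and 11.7% for petL. For petG counting gave 9.66% in naked DNA and 4.70% in the nucleoid, for petA 2.36% and 1.57%, and for ccsA 3.05% and 1.86%. The nucleoid spread of petL also moved with depth, with its mean at 89.8 ± 12.2 (SD, n = 8) in the deep nucleoid libraries. Among the deep libraries the naked SD was the smaller for petA (2.39 against 4.34), petL (9.21 against 12.2) and ccsA (4.39 against 4.97). It was the larger for petN (12.6 against 4.76) and petG (6.55 against 4.52). The part of depth in the spread was not tested. The smallest count behind any value was 20 insertions for petL, 31 for petG and 76 for petN, against 416 for ccsA and 672 for petA, so single values of the short genes are the less precise ones.

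Along the genome the low values of naked replicates 9, 10 and 11 came in stretches, which held petL and petG in all 3 libraries and petA fully in replicate 9 alone. Over the windows from psaI to cemA, Pltd 59201 to 61600 in the TAIR10 coordinates of the deposited table, these libraries read 17.1, 35.2 and 23.3, against 59.5 to 91.3 in naked replicates 1 to 8. Over petA, the next stretch, they read 31.6, 93.2 and 77.5, against 85.03 to 102. Replicate 9 thus stayed low across cytochrome f, whereas replicate 10 lay inside the range of the others and replicate 11 just below it. Between petA and psbJ all 3 lay below the others, at 26.1, 35.9 and 27.6 against 40.5 to 77.4. Over psbJ, psbL, psbF and psbE, which encode small photosystem II subunits, they read 116, 115 and 114, against 95.03 to 114 in the others. Signal in all 3 libraries was then low again between psbE and petL, at 27.7, 23.5 and 20.4 against 31.3 to 57.1. Over petL and petG themselves they read 18.7, 26.2 and 17.5 against 61.3 to 89.8, and from trnW to rps18 they read 13.4, 22.9 and 15.3 against 48.1 to 74.4.

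The other genes lay in shallower stretches. Over ccsA, Pltd 114401 to 115600, these libraries read 36.2, 33.0 and 27.7 against 52.8 to 71.7 in the other naked libraries. Around petN, Pltd 27801 to 28400, they read 53.4, 51.2 and 48.9 against 69.5 to 81.7. Low windows were common across the genome in these libraries, though not in every stretch. Of the 772 windows of 200 bp, 43.5% lay below the lowest of naked replicates 1 to 8 in replicate 9, 41.5% in replicate 10 and 54.9% in replicate 11. Of the 16 windows that overlap the 5 genes, 15, 11 and 15 did so.

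**Figure D4:**
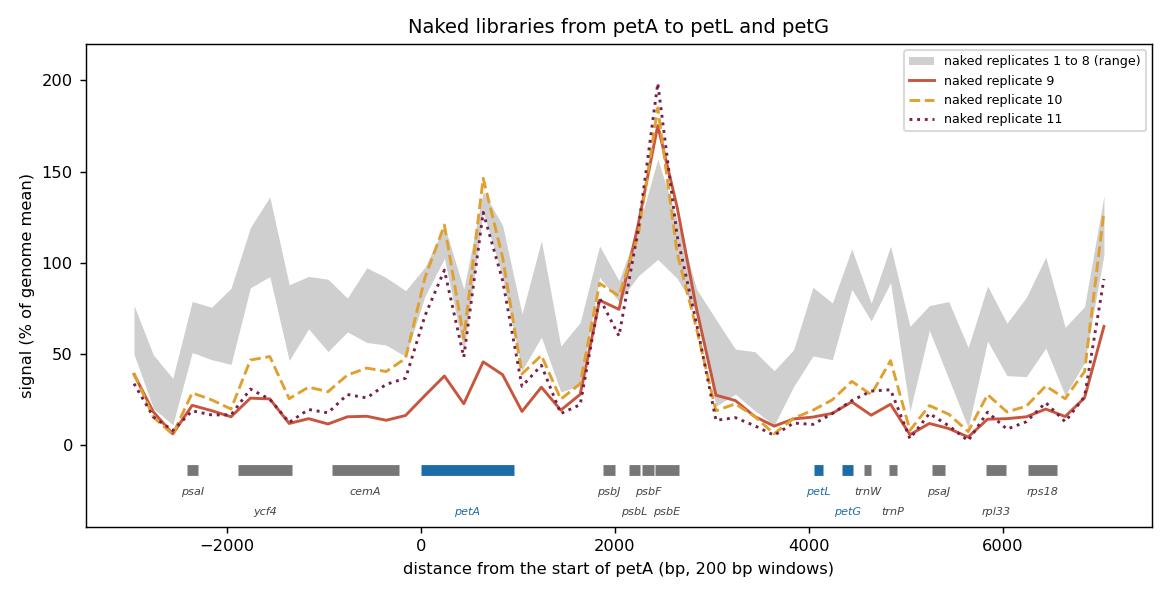
Signal in 200 bp windows along the stretch that holds petA, petL and petG, as percent of the genome mean (vertical axis), by distance from the start of petA (horizontal axis, bp), as a grey range for naked replicates 1 to 8 and as lines for naked replicates 9, 10 and 11, with genes as bars. Over petA replicate 9 reads 31.6 while replicate 10 reads 93.2, and over petL and petG all 3 read 26.2 or less.

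All 16 windows that overlap the genes had a higher mean in the nucleoid, with log2 differences from 0.06 to 0.72 and a median of 0.35. The median over all 772 windows was 0.16, and 519 of them were above 0. Scaling to the genome median, which lowers every value, left 12 of the 16 above 0, and 11 were above 0 without naked replicates 9, 10 and 11. Past the threshold were 2 of the 16, both over ccsA, where 11.7% of all windows were higher in the nucleoid and 22.8% passed in either direction (limma, over 772 windows). In the window Pltd 115001 to 115200 the nucleoid mean was 60.8 ± 8.48 (SD, n = 10) and the naked mean 42.6 ± 14.6 (SD, n = 11), a log2 difference of 0.59 with a standard error of 0.187 (limma, adjusted p = 0.0332). In the window Pltd 115401 to 115600, which holds the end of ccsA, the means were 74.6 ± 9.08 (SD, n = 10) and 49.7 ± 21.2 (SD, n = 11), a log2 difference of 0.72 with a standard error of 0.236 (limma, adjusted p = 0.0353). Neither passed without naked replicates 9, 10 and 11, at 0.26 and 0.32, or among the deep libraries, at 0.25 and 0.18. Leaving out nucleoid replicate 1, 2, 6 or 8 or naked replicate 9 or 10 alone also left 0 of the 16 windows past the threshold, and leaving out naked replicate 1 left 6.

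The DNA beside the genes was compared in the same way. All 5 genes are read toward higher coordinates in the Arabidopsis plastid, so the 200 bp at lower coordinates are the upstream side. Of the 10 sides 2 passed, both higher in the nucleoid, where 31.4% of the 223 sides of all genes passed in either direction with 21.1% higher in the nucleoid and 10.3% lower (limma, over 223 sides). Upstream of petL the nucleoid signal had a lowest value of 36.6, a median of 56.5 and a highest of 80.1, and the naked signal had 5.97, 35.8 and 59.9. All 10 nucleoid libraries lay above the naked median, and the ranges overlapped. The means were 58.1 ± 13.8 (SD, n = 10) and 35.0 ± 19.3 (SD, n = 11), a log2 difference of 0.96 with a standard error of 0.335 (limma, adjusted p = 0.0466).

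Downstream of ccsA, between it and ndhD, the nucleoid signal had a lowest value of 62.5, a median of 76.4 and a highest of 93.4, and the naked signal had 13.1, 52.9 and 80.9. All 10 nucleoid libraries again lay above the naked median. The means were 77.2 ± 9.81 (SD, n = 10) and 50.7 ± 22.9 (SD, n = 11), a log2 difference of 0.77 with a standard error of 0.255 (limma, adjusted p = 0.0388). Each call was lost in 14 of the 21 fits that left out a single library, namely any of nucleoid replicates 1 to 9 and naked replicates 7 to 11, with an adjusted p of up to 0.0846 for petL and 0.0782 for ccsA (limma). Both were also lost without naked replicates 9, 10 and 11, at 0.40 upstream of petL and 0.33 downstream of ccsA, among the deep libraries and with log2 depth in the model.

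The remaining sides did not pass. The gap of 190 bp shared by petL and petG, which counts as the downstream side of the one and the upstream side of the other, had a difference of 0.65 (limma, adjusted p = 0.0536 and 0.0538). For petA the difference was 0.33 upstream and 0.42 downstream, for petN 0.24 and 0.23, and downstream of petG 0.38. Without naked replicates 9, 10 and 11 the shared gap read 0.19, the sides of petA 0.096 and 0.15, those of petN 0.067 and 0.036, and the downstream side of petG -0.053. Upstream of ccsA the difference was -0.18 (limma, adjusted p = 0.0783), with none of the 10 nucleoid libraries above the naked median. That side includes the leucine tRNA gene trnL, which ends 111 bp from ccsA, and with a side of 100 bp, which stops short of trnL, the difference was 0.59 (limma, adjusted p = 0.0811).

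Set against the 500 bp on each side of it, none of the 5 genes passed, where 31.2% of the 112 genes did, 4 (3.57%) higher in the nucleoid and 31 (27.7%) lower (limma). The log2 difference of gene over flanks, nucleoid minus naked, was -0.27 for petN (limma, adjusted p = 0.0637), -0.24 for petA (0.0604), -0.07 for petL (0.554), -0.05 for ccsA (0.487) and 0.09 for petG (0.282). All 5 genes had means above their flanks in either fraction. So did most of the 112 genes, petB and petD among them, so this is not particular to the 5. On the log2 scale petN did so by 0.70 in the nucleoid and 0.97 in naked DNA, and petA by 0.44 and 0.68. For petL the values were 0.28 and 0.34, for petG 0.34 and 0.25, and for ccsA 0.45 and 0.51. With flanks of 200 bp, petA at -0.20 and petL at -0.22 passed (limma, adjusted p = 0.0423 and 0.0176), as did 49 of all 112 genes, and a log2 depth term brought petL past the threshold too, at -0.21 (limma, adjusted p = 0.0482). Without naked replicates 9, 10 and 11 the differences were -0.20 for petN, -0.11 for petA, -0.17 for petL, -0.071 for ccsA and 0.0088 for petG. Among the deep libraries petN read -0.056 and petA -0.055, and none of these passed. Both petN and petA, the genes nearest the threshold, also passed, lower in the nucleoid, when nucleoid replicate 11 or naked replicate 1, 2 or 3 was left out.

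**Figure D5:**
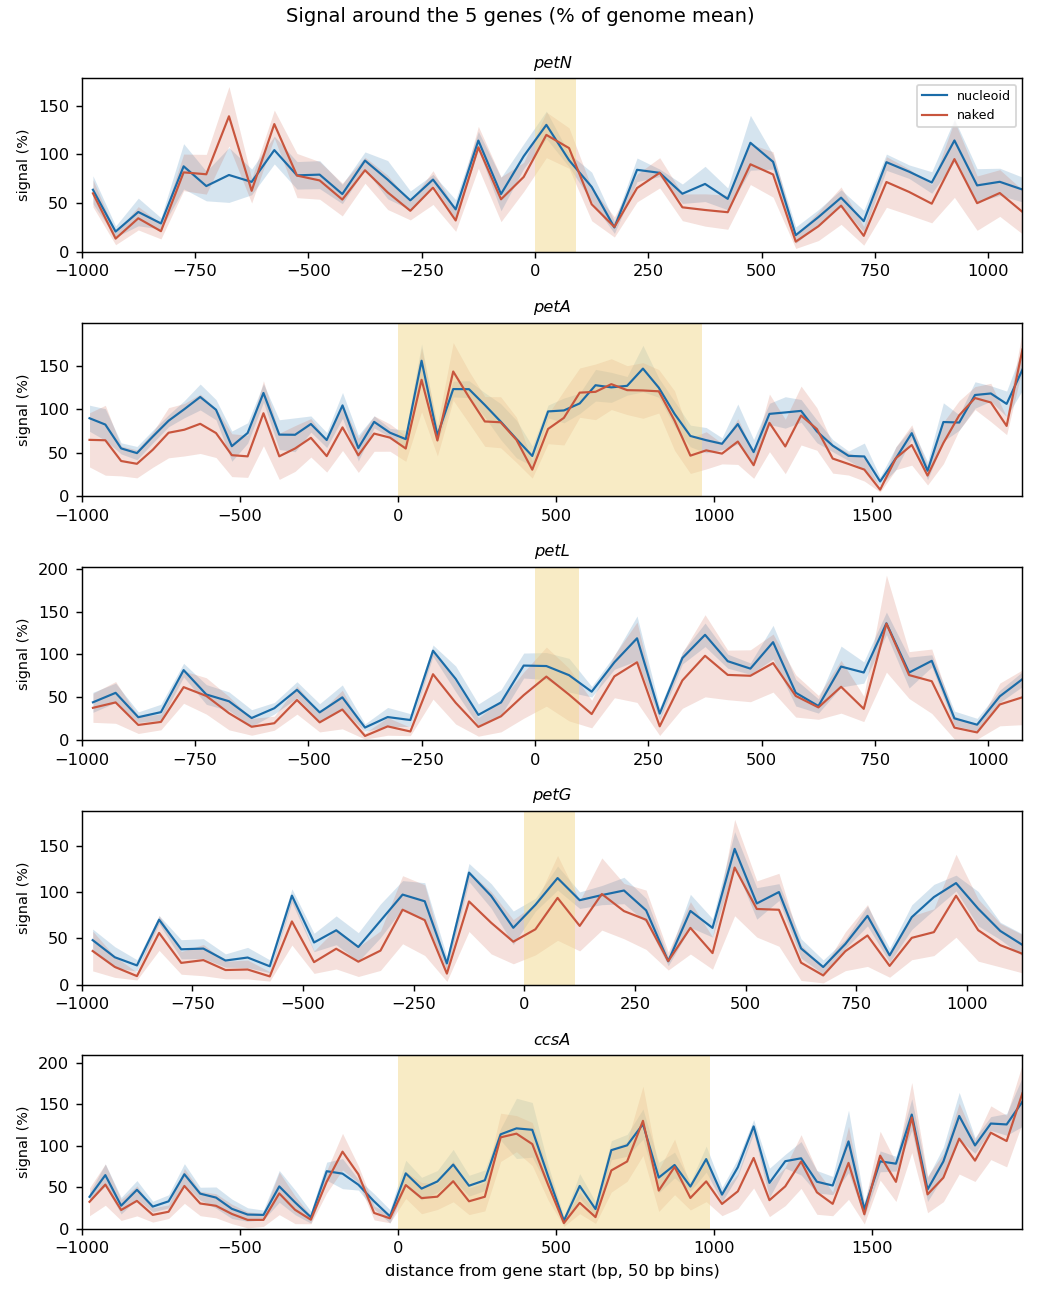
Mean signal in 50 bp bins around each of the 5 genes, as percent of the genome mean (vertical axis), by distance from the gene start (horizontal axis), for the nucleoid (blue) and naked DNA (red), with bands of 1 SD over libraries and the gene shaded. Most peaks and dips fall at the same places in both fractions, and the naked line runs mostly below the nucleoid line beside each gene, with exceptions such as the peaks over trnC before petN and trnL before ccsA.

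Within the genes the insertions fell on the same positions in both fractions. Across positions of a gene, log2(mean signal + 1) in the nucleoid and in naked DNA had a Pearson correlation of 0.92 to 0.94 for the 5 genes. It is given as a description because positions of a gene share libraries and sequence. In petN position 8, counted from 1 at the gene start, held 13.5% of the signal of the gene in the nucleoid and 11.96% in naked DNA. The 10 strongest of its 90 positions held 53.1% and 58.4%. In petA the strongest position, 798 of 963, was also the same in both fractions, while in petL and ccsA it differed. In ccsA the 10 strongest of 987 positions held 10.2% and 12.4%, shares that depend on gene length and cannot be compared with those of petN.

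The other plastid genes of the complex lie in the psbB cluster. For petB, which encodes cytochrome b6, the nucleoid mean was 106 ± 3.19 (SD, n = 10) and the naked mean 95.9 ± 6.83 (SD, n = 11), a log2 difference of 0.15 with a standard error of 0.0428 (limma, adjusted p = 0.0136). It was called higher in the nucleoid, and remained so without naked replicates 9, 10 and 11 at 0.12 (limma, adjusted p = 0.0294), but not with log2 depth in the model at 0.11 (limma, adjusted p = 0.0784) nor among the deep libraries at 0.06 (limma, adjusted p = 0.269). Scaling to the single copy mean gave 0.04 (limma, adjusted p = 0.545) and scaling to the genome median -0.0051, so its direction rests on the scaling. For petD, which encodes subunit IV, the means were 97.8 ± 1.77 and 96.1 ± 5.15, a difference of 0.03 (limma, adjusted p = 0.491). Over all libraries the petB difference was smaller than those of petG, petL and ccsA, and without naked replicates 9, 10 and 11 it was larger than theirs. A difference between these genes was not tested.

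Among the 38 electron transport genes, the psa, psb, pet and ndh genes with ccsA, 2 were higher in the nucleoid, petB and ndhB, and 4 were lower, psbA, psbD, psbC and ndhJ. The remaining 32 did not pass. Of all 112 genes 9.82% were higher and 24.1% lower. The median log2 difference of the list was 0.16 and 28 of 38 were above 0, beside a median of 0.10 and 66 of 112 for all genes.

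Nearest neighbours included tRNA genes that were lower in the nucleoid. The cysteine tRNA gene trnC, 645 bp before petN, had nucleoid values with a lowest of 40.8, a median of 66.9 and a highest of 107, and naked values of 95.6, 127.5 and 176. None of the 10 nucleoid libraries reached the naked median. Its log2 difference was -0.96 (limma, adjusted p = 0.000572). The trnL gene before ccsA had a difference of -0.41 (limma, adjusted p = 0.0120), which did not pass without naked replicates 9, 10 and 11 at -0.31 (limma, adjusted p = 0.0618). The protein-coding neighbours did not pass: cemA, which encodes an envelope membrane protein, at 0.54, the photosystem II genes psbM at 0.45, psbJ at 0.01 and psbE at -0.13, and ndhD, which encodes a subunit of the NDH complex, at 0.28. The tryptophan tRNA gene trnW after petG did not pass either, at 0.25. Without naked replicates 9, 10 and 11 cemA read 0.14, psbM 0.16, psbJ -0.020, psbE -0.0085, ndhD -0.0020 and trnW -0.20, while trnC kept -0.95 (limma, adjusted p = 0.00123). Over all 12 alternative settings the trnC difference ran from -1.12 to -0.126, and its call was kept in 11 of them.

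Genes more than 1000 bp away were ranked by Pearson correlation of log2 signal with each of the 5 over 21 libraries after the mean of each fraction was removed, which describes these libraries only, since all genes share depth and scaling. The median correlation with all such genes was 0.10 for petN, 0.20 for petA, 0.41 for petL, 0.43 for petG and 0.51 for ccsA. The pattern of petG was most like those of the NDH genes ndhG (0.99), ndhI (0.99) and ndhA (0.98), and that of petL like ndhG (0.97), trnK (0.97) and matK (0.97). Without naked replicates 9, 10 and 11 these fell to 0.85, 0.72 and 0.87 for petG and to 0.85, 0.76 and 0.73 for petL. The pattern of ccsA was most like rps16 (0.99), matK (0.99) and ycf1 (0.99), and these values stayed at 0.95 to 0.96 over the 18 libraries without naked replicates 9, 10 and 11. The pattern of petN was most like psbN (0.89), trnV with locus tag ArthCt103 (0.83) and rpl20 (0.69), or 0.86, 0.71 and 0.50 without the 3 libraries. The pattern of petA was most like rps4 (0.94), trnS with locus tag ArthCt125 (0.88) and rpl20 (0.87), of which trnS fell to -0.60 and rpl20 to -0.08 without the 3 libraries. Among the 5 genes themselves petL and petG were most alike at 0.97, and 0.84 without these libraries. The correlation of petN with petA was 0.50 over all libraries and -0.63 without the 3, and with petL, petG and ccsA it went from 0.44, 0.53 and 0.36 to -0.48, -0.56 and -0.69.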

How the data were processed

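The deposited table holds whole-number counts per position of the plastid genome, 1 column for each of 22 libraries, in TAIR10 coordinates per the file headers. They are recorded as other, because the commas in the column names kept the unit from being checked, and the only model of counts run on them was limma voom, as an alternative. Trim Galore 0.4.1, Bowtie2 2.2.8.9 and bedtools 2.25.0 are named in the submitters' processing notes. Duplicate removal, mapping filters, the shift of read ends to the insertion centre and how reads shared by the inverted repeats were placed are not given in the sources used here. Duplicates, if kept, would overstate the precision of a count, and an unshifted end would move a count by a few positions.

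Gene limits came from a RefSeq table of TAIR10.1. Its coordinates were checked on the counts only through the inverted repeats, which mirrored best at a position sum of 238649 (r = 0.91, next 0.38). The 5 genes lie outside the repeats, so their own limits were not checked in this way. The 129 plastid entries gave 112 genes, of which 15 have 2 copies that were summed. That table gives no strand, so the planned upstream test was run on both 200 bp sides of every gene. Signal was log2(signal + 1) transformed, which shrinks differences of low genes. Differences between fractions were tested with limma 3.58.1 in R 4.3.3, two-sided, with fraction as the only term and features with a mean count of at least 10. The tests were tried on simulated data. Named genes were the 5 genes, petB and petD, nearest neighbours, the electron transport list, the 3 most alike genes and the overlapping windows. The members and lists were chosen with earlier results of these data known. Alternatives were another scaling, pseudocount, count minimum, side and flank length, limma voom, log2 depth, a replicate block, deep libraries and leaving out libraries. Sensitivity to depth is limited by totals as low as 105763 counts.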

Additional observations from a re-analysis of the deposited data

Results flagged for a closer look

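Values of the genes, of their sides and of the genes relative to flanks, 22 in all, were tested for a single library far from the rest of its group. By Dixon's criterion 3 stood out, and chance would give about 1.1. The values share libraries and in part DNA, so the 1.1 is only a guide. Only the 10 nucleoid libraries were tested this way, since the criterion covers groups of up to 10 and there were 11 naked libraries. All 3 were in nucleoid replicate 11, the shallowest nucleoid library at 202725 counts. The 200 bp upstream of petN read 54.1 there, and the next lowest nucleoid library read 75.3. The petN signal relative to its flanks was 1.16 on the log2 scale, and the next highest was 0.84. The side upstream of petN is part of these flanks, so these flags are not separate. The petL signal relative to its flanks was -0.19, and the next lowest was 0.14. Its gap was 0.4665 of the range against a critical value of 0.466, so it only just stood out. The part of depth in these 3 values was not tested.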

How the results depend on the processing

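Whether naked replicates 9, 10 and 11 and the shallow libraries were included moved most values. The number of genes past the threshold was 38 and became 20 with log2 depth in the model and 15 among the deep libraries. The windows went from 176 to 3, 1 and, without naked replicates 9, 10 and 11, 55. The gene sides went from 70 to 0 with log2 depth (48 at an unadjusted p under 0.05, limma), 0 among the deep libraries (44 unadjusted), 1 without those 3 libraries, 45 with median scaling and 43 with limma voom. Genes relative to their flanks went from 35 to 14, 16 and 23 under the depth term, the deep libraries and the loss of the 3 libraries. The steps in the order of levels went from 5 to 3 among the deep libraries, all 3 in the nucleoid. No naked step could pass there, since 5 libraries cannot go below an exact p of 0.0625. Leaving out 1 library at a time gave 30 to 43 genes, 85 to 348 windows, 1 to 119 sides and 28 to 51 genes relative to flanks.

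Scaling to the genome median moved the median of all genes from 0.10 to -0.05, and the share of higher calls among genes from 28.9% to 3.23%, or to 6.67% with the single copy mean. For windows the share went from 51.1% to 23.9% and 35.6%, and for sides from 67.1% to 35.6% and 50.9%. With median scaling petN read -0.15, petB -0.0051, petD -0.12 and psbJ -0.14, and with the single copy mean petN -0.11, petD -0.080 and psbJ -0.096. The other members kept their direction under median scaling but were smaller. There petA read 0.016 against 0.17, petL 0.41 against 0.56, petG 0.47 against 0.62 and ccsA 0.19 against 0.34, and none passed. With voom psbJ read -0.0153. Among the deep libraries petA read -0.0115, petL -0.0606, petG -0.0267, ndhD -0.0277, psbJ -0.0521, trnW -0.110, the side after petG -0.0483 and petG relative to flanks -0.0754. Without naked replicates 9, 10 and 11 petN read -0.0929, petL -0.0145, ndhD -0.0020, psbJ -0.0198, trnW -0.198 and the side after petG -0.0532. With 200 bp added on each side trnL (Arthct122) read 0.11, and with 100 bp sides the side before ccsA read 0.59. Relative to its flanks ccsA read 0.0027 with log2 depth and 0.0451 with 200 bp flanks. Leave-one-out values ran from -0.0421 to 0.0442 for petN and -0.0091 to 0.0373 for psbJ. The cause was not tested for any of these.

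Both fractions carry replicate numbers. Same-numbered libraries had correlated deviations of -0.07 to 0.72 over 9 pairs, 6 of them above 0.1, and 1 of 9 nucleoid libraries correlated best with its own number, so the numbers were not taken as pairs. The replicate block called 25 genes, 179 windows, 90 sides and 31 genes relative to flanks, and the same libraries without a block, an alternative chosen after seeing the data, called 21 genes, 5 windows, 1 side and 14 genes relative to flanks. Over the 5 genes the block called 3 of 16 windows and 3 of 10 sides, against 0 and 0 without it. With and without the block petN read -0.0679 and psbJ -0.0034.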
